A study of Caenorhabditis elegans with 9 samples.

Results

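Expression in nas-38(ok3407) larvae was compared with wild type across all genes of the deposited read table, using the libraries that the labels assign to these genotypes. They are 6 of the 9 libraries of the series, 3 of each genotype, and the table holds 46699 genes, of which 16055 had enough reads to be tested. Wild type was strain N2, ok3407 was carried by strain HBR1010, and the remaining 3 libraries, used for the shared estimate of spread and as values beside the comparison, came from strain HBR1114 with the allele tm2655. All animals were whole Caenorhabditis elegans larvae in L4 lethargus, raised on E. coli OP50 at 20°C, synchronised by bleaching and picked by hand while asleep. Each allele is represented by 1 strain, so the allele and the rest of that strain's background cannot be told apart, and the time within lethargus at which animals were picked is not given. The series title writes the allele as ok4307 and the sample labels as ok3407; the authors' deposited table calls it a gain-of-function allele.

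nas-38 encodes a secreted astacin, a zinc metalloprotease of a family whose members act on cuticle and other extracellular proteins. Lethargus is the sleep-like quiescent phase that precedes each molt, when the epidermis builds the new cuticle under the old one. Antimicrobial peptides of the epidermis, cuticle collagens and muscle genes are described briefly at the end, and most of the account concerns genes outside those lists.

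Gene reads per library ran from 13759541 to 40523994, with wild type replicate 1 the shallowest and ok3407 replicate 3 the deepest. The share of gene reads in introns was 9.90 to 11.4% in ok3407 and 8.83 to 9.34% in wild type. The share of exon reads across junctions was 42.3 to 43.9% in ok3407 and 38.1 to 40.5% in wild type, and the ranges of the genotypes overlapped for neither share; the part of these differences in the changes below was not tested. On the first principal component, which held 38.8% of the variance, the 3 ok3407 libraries stood at the negative end, from -67.1 to -46.98. Wild type lay from 29.3 to 51.3. Whole-animal markers were detected in both genotypes: summed neuron markers were 800 to 903 in counts-per-million units (CPM) in ok3407 and 822 to 881 in wild type. Summed excretory and glia markers were 418 to 469 CPM against 457 to 526. Summed pharynx and gland markers were 1177 to 1364 CPM in ok3407, below the 1501 to 1736 of wild type. CPM values throughout are taken over all gene reads of a library after trimmed-mean (TMM) scaling.

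nas-38 itself (chromosome X, 558190 to 563629 in the deposited tables) was read at 134, 57.9 and 65.1 CPM in wild type replicates 1 to 3 and at 227, 375 and 337 CPM in ok3407. All ok3407 values lay above all wild type values, and the tm2655 libraries lay below both at 10, 14.4 and 7.56 CPM. The log2 fold change of ok3407 against wild type was 1.87 ± 0.37 (SE, n = 3 and 3; adjusted p = 0.0265, edgeR quasi-likelihood test with Benjamini-Hochberg adjustment, as for every adjusted p below). This call was lost when wild type replicate 2 or 3, or ok3407 replicate 2 or 3, was left out, with log2 fold changes between 1.64 and 2.34 over the 6 fits and adjusted p up to 0.115.

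At an adjusted p under 0.05, 534 genes were higher and 467 lower in ok3407, which is 3.33% and 2.91% of the genes tested (6.23% together). The 3 ok3407 libraries lay above all wild type libraries for 14.4% of tested genes and below them for 14.5%, and every called gene was among these. Of the called genes, 501 of the higher and 423 of the lower were in none of the immune, collagen or muscle lists, and 390 and 314 were in none of the 83 lists used here. Genes called higher changed by more: their median was 3.31-fold, with 224 above 4-fold and 65 above 16-fold. The median of the genes called lower was 1.76-fold, with 36 past 4-fold and 6 past 16-fold. The genes called lower were also the more abundant ones: among genes above 100 CPM, 10.6% were lower and 4.12% higher, whereas among genes of 1 to 10 CPM, 0.987% were lower and 3.08% higher. Scaling by total library size moved the median log2 fold change of all genes from 0.03 to 0.24, a shift of 0.21, and turned the split into 757 higher and 167 lower, so that 81.9% of calls were higher in place of 53.3%. On log2 RPKM with a pseudocount of 1 the calls were 731 higher and 220 lower (76.9% higher), and with 0.1 they were 706 and 225 (75.8%), with the median of all genes at 0.17 and 0.21. Leaving out wild type replicate 3 left 95 genes higher and 28 lower. Leaving out the first wild type library gave 263 and 122. Leaving out ok3407 replicate 2 gave 211 and 88, and leaving out ok3407 replicate 1 gave 367 and 154. In total 93 of the higher and 26 of the lower genes were called in each of the 6 fits that left out 1 library, and every one of the 1001 called genes kept its sign in them. Of the 270 genes that the naming rule selects, 61 were called in all 6 of these fits; omitting wild type replicate 3 ended 208 of the calls, ok3407 replicate 2 ended 150, wild type replicate 1 ended 126, ok3407 replicate 1 ended 114, wild type replicate 2 ended 92 and ok3407 replicate 3 ended 66.

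**Figure D1:**
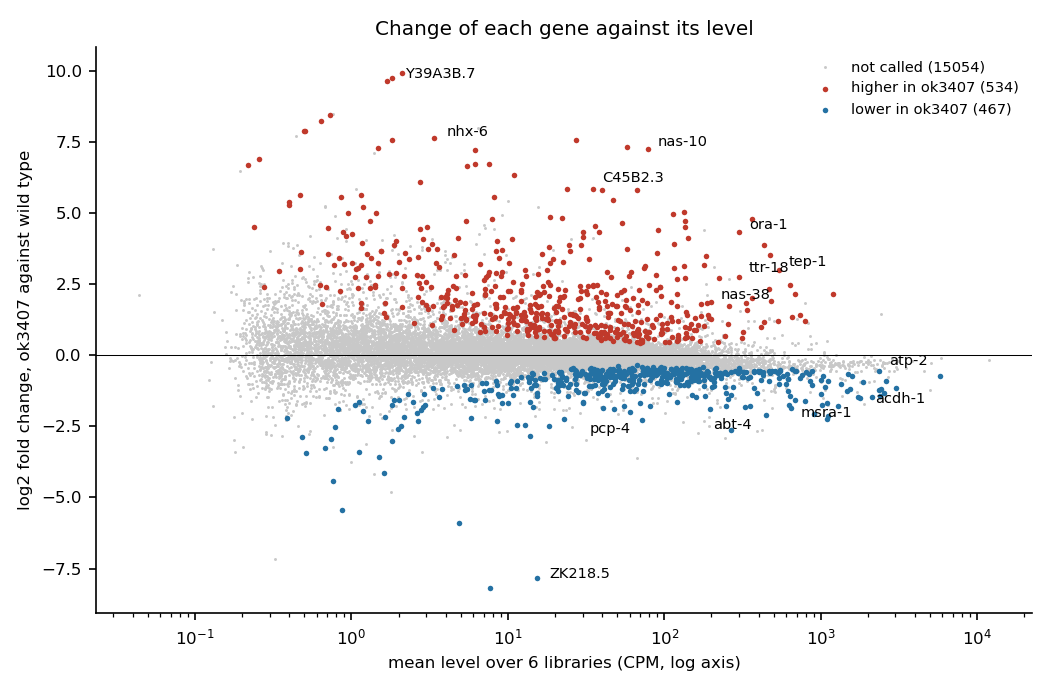
Each point is a tested gene, placed by its mean level over the 6 libraries (CPM, log axis) and its log2 fold change in ok3407 against wild type; red points were called higher (534) and blue points lower (467). The higher calls reach larger changes and spread over all levels, while most lower calls lie between 10 CPM and the top of the range at small changes.

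Rises with a small p outside the immune, collagen and muscle lists ran from genes near 1 CPM in wild type to genes above 100 CPM. C45B2.3 (chromosome X, 6082960 to 6083333), which carries a sequence name only, was read at 1.58, 0.859 and 1.26 CPM in wild type and at 67.4, 65.9 and 72.7 CPM in ok3407. Its ok3407 libraries lay close together and far above wild type, and the log2 fold change was 5.85 ± 0.40 (SE; adjusted p = 0.000435). tep-1, a thioester-containing protein of the complement-like family, stood at 152, 104 and 111 CPM in wild type and 1129, 973 and 799 CPM in ok3407. The groups did not overlap, with a log2 fold change of 2.98 ± 0.24 (adjusted p = 0.000842), and tm2655 was at 171, 107 and 110 CPM, within or just above the wild type range. ora-1, named for its relation to an Onchocerca antigen, was at 32.1, 29 and 24.1 CPM in wild type and 563, 828 and 334 CPM in ok3407 (log2 fold change 4.34 ± 0.35, adjusted p = 0.000948). F58G1.7 had the smallest adjusted p of the genes outside the lists, 0.000186, with 4.43, 3.41 and 3.07 CPM in wild type and 98.1, 65.3 and 55.5 CPM in ok3407. C45B2.3, tep-1, ora-1 and F58G1.7 were each called whichever of the 6 libraries was left out.

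Enzymes, transporters and channels were among the rises with the smallest p. oat-1, an organic anion transporter, rose from 13.3, 10.5 and 10.1 CPM to 62.9, 66.9 and 58.6 CPM (log2 fold change 2.48 ± 0.18, adjusted p = 0.000464). fmo-3, a flavin-containing monooxygenase, rose from 30.4, 22.2 and 37.7 CPM to 144, 175 and 152 CPM. cyp-32A1, a cytochrome P450, rose from 27.1, 22.9 and 27.6 CPM to 71.4, 97 and 90.6 CPM. For all 3 genes the lowest ok3407 library was above the highest wild type library. orai-1, the pore of the store-operated calcium channel, rose from 28.5, 24.2 and 30.6 CPM to 81.2, 83.2 and 67 CPM, a log2 fold change of 1.47 ± 0.14 (adjusted p = 0.00158). oac-46, an O-acyltransferase homologue, had a log2 fold change of 1.74 ± 0.15, and W09D12.1, which RefSeq names zmp-4, one of 2.69 ± 0.23.

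Several of the largest changes rested on near-absence in wild type. Y39A3B.7 had 450 reads over the 3 ok3407 libraries and 0 over the 3 wild type libraries, which makes it at least 95.7-fold higher when the 0 is set to 3 reads over the group. R13D11.10, with 0 and 395 reads, was at least 84-fold higher by the same floor. nhx-6, a sodium/proton exchanger, had 650 reads in ok3407 and 2 in the control strain, a depth-scaled ratio of 207 (exact 95% interval 57.2 to 1716, counting error only). The ok3407 libraries of nhx-6 were unequal, at 7.66, 11.9 and 0.656 CPM. Y39A3B.7 and nhx-6 each lost their call without any of the wild type libraries, Y39A3B.7 also without ok3407 replicate 2; the tm2655 libraries held at most 0.140 CPM of Y39A3B.7 and 0.0329 CPM of nhx-6. C50F7.5 and the noncoding RNA tts-1 had reads in some tm2655 libraries too. C50F7.5 was at 1.03, 0.385 and 0.930 CPM in wild type and at 253, 61.8 and 29.6 CPM in ok3407, but tm2655 replicate 1 had 40.3 CPM and the other tm2655 libraries 1.12 and 1.74. tts-1 was at 0.790, 1.84 and 1.302 CPM in wild type, 101, 113 and 20.5 CPM in ok3407, and 38, 1.19 and 24.8 CPM in tm2655. Against tm2655, where 4.02% of genes were called (2.33% higher and 1.69% lower in ok3407), neither gene passed the test, with adjusted p of 0.298 for C50F7.5 and 0.386 for tts-1. The call against wild type was lost in all 6 fits that left out a library for C50F7.5 and in 5 of 6 for tts-1.

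**Figure D2:**
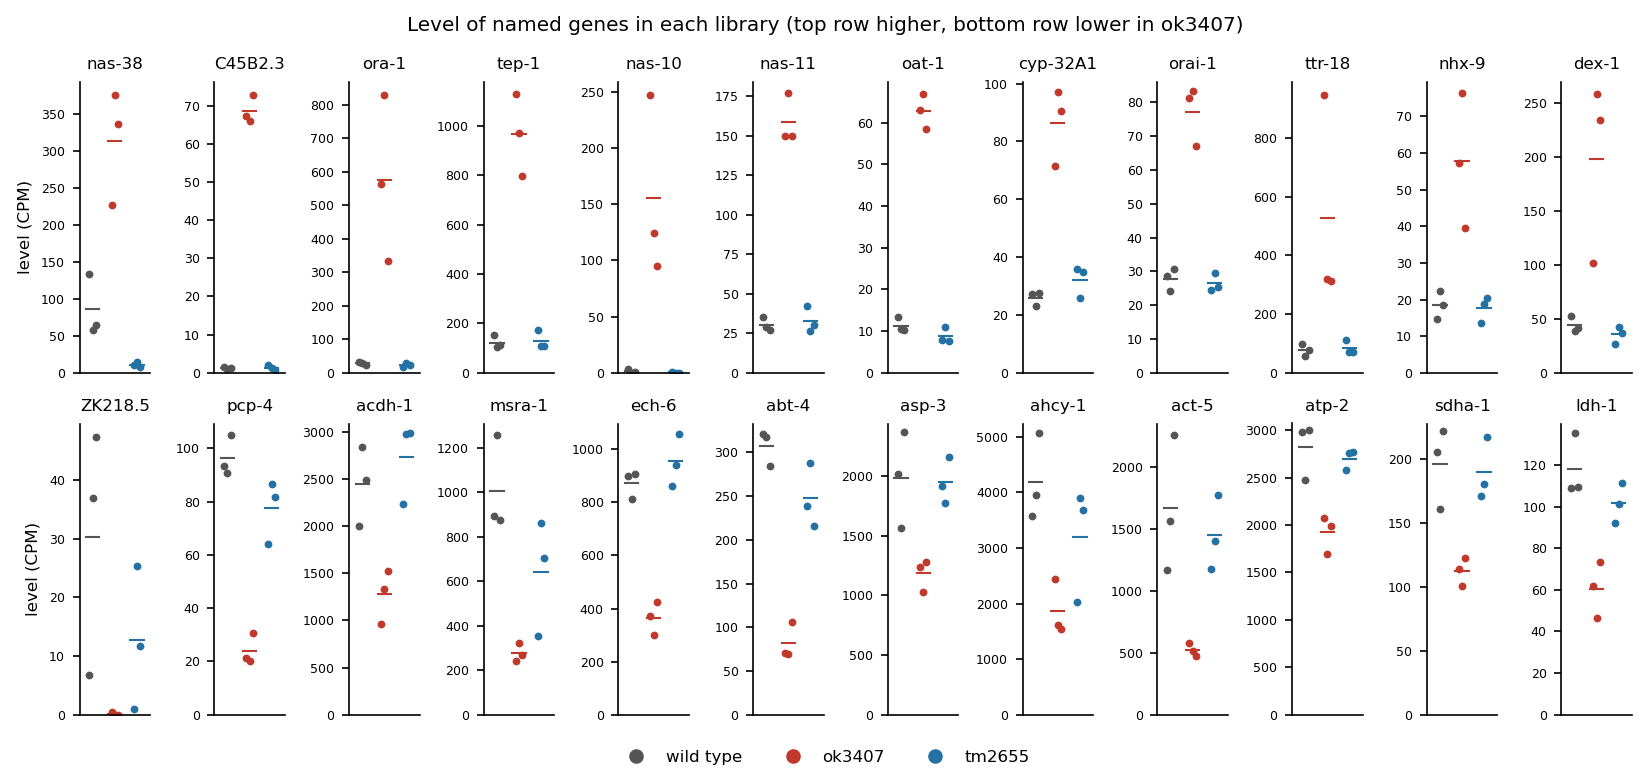
Level in CPM of 24 genes in each library (grey, wild type; red, ok3407; blue, tm2655; bars are group means, each axis starts at 0). In every panel of the top row the 3 ok3407 points lie above the wild type points, and in every panel of the bottom row below them. The same held for every called gene, so it does not set these genes apart.

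Protease families differed in direction. Of 32 tested astacins 5 were higher and none lower, 15.6% against the 3.33% of all genes. The 5 include nas-38 itself, the gene mutated in ok3407. nas-10 was at 3.00, 0 and 0.790 CPM in wild type and 247, 124 and 95 CPM in ok3407 (log2 fold change 7.26 ± 1.08, adjusted p = 0.0119; 0.0672 without wild type replicate 3). nas-11 was at 34.9, 28.8 and 27 CPM in wild type and 150, 177 and 150 CPM in ok3407 (2.39 ± 0.19, adjusted p = 0.000707). tm2655 was near wild type for nas-11, at 42.1, 26.6 and 30 CPM. The median of all 32 astacins moved little: the log2 fold change was 0.16, and it was -0.02 when wild type replicate 3 or ok3407 replicate 2 was left out, where 1 and 2 astacins were called. Leaving out wild type replicate 2 also left 2 calls, and wild type replicate 1 or ok3407 replicate 3 left 3. Of the 11 ADAM, ADAMTS and matrix metalloprotease genes listed with their inhibitor by deposited name, adt-1 and cri-2 were higher. The tissue inhibitor of metalloproteases cri-2 went from a mean of 23.7 to 89.8 CPM (1.93 ± 0.29, adjusted p = 0.00952). Neither of the pair was called when wild type replicate 3 was left out. W09D12.1, named zmp-4 by RefSeq only, was not counted in this list. It rose (2.69 ± 0.23, adjusted p = 0.000948) and was called in all 6 fits that left out a library. Of 23 cathepsin and aspartic proteases none was higher and 2 were lower, the lysosomal asp-3 and the cathepsin B-like cpr-8 (mean 9.01 to 4.59 CPM), with a list median of -0.47. asp-3 was called in 1 of the 6 fits that left out a library and cpr-8 in none.

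Of 40 apical matrix genes 7 were higher and none lower (17.5%), with a median log2 fold change of 0.61, against 0.03 for all genes. mlt-3, an ankyrin-repeat partner of the molting kinases rather than a matrix protein, was at 13, 9.04 and 10.2 CPM in wild type and 88.7, 50.1 and 40 CPM in ok3407 (2.48 ± 0.37, adjusted p = 0.00959). dex-1, a secreted matrix protein that anchors sensory dendrites, was at 53, 38.8 and 41.1 CPM in wild type and 102, 259 and 234 CPM in ok3407 (2.16 ± 0.34, adjusted p = 0.0124). bli-3, the dual oxidase that cross-links cuticle, rose from a mean of 59 to 85.3 CPM (0.53 ± 0.12, adjusted p = 0.0339). The list's median level by library was lowest of the ok3407 group in replicate 1, which was within the wild type range, so the shift of the list was carried by replicates 2 and 3. The count of 7 fell to 0 in the fit that left out wild type replicate 3, and to between 2 and 4 in the other such fits. Of 29 molting kinases and regulators, a list that also holds mlt-3, 6 were higher (20.7%) and 1 lower, with a median of 0.05. nekl-2, a NIMA-related kinase needed for molting, was at 6.24, 7.70 and 4.74 CPM in wild type and 13.2, 14.1 and 14 CPM in ok3407 (1.14 ± 0.21, adjusted p = 0.0177). elt-3, a GATA factor of the epidermis, was the lower gene (mean 27.7 to 14.6 CPM). The fits that left out a library gave 0 to 3 higher genes of this list, with 0 without wild type replicate 3 and 1 without ok3407 replicate 2, and elt-3 was called in 1 of them. Of 30 cuticlins, 3 were higher, led by cutl-15 at 29.5, 20.8 and 16.3 CPM in wild type and 174, 157 and 136 CPM in ok3407 (2.81 ± 0.25, adjusted p = 0.000965). Of 28 patched-related genes, 4 were higher, among them ptr-1 (mean 24.7 to 134 CPM) and ptr-8 (76.1 to 202 CPM), both of the family of sterol-sensing membrane proteins. Without wild type replicate 3, 1 cuticlin and no patched-related gene was called, and without ok3407 replicate 2, 1 of each. The fusogens eff-1 and aff-1, which fuse epidermal cells, were the 2 called of 15 cell fusion and seam genes. eff-1 went from a mean of 6.49 to 18.7 CPM (1.53 ± 0.23, adjusted p = 0.00802) and aff-1 from 1.37 to 4.59 CPM (1.77 ± 0.42, adjusted p = 0.0393), but aff-1 was called in none of the fits that left out a library.

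Of the lists outside the immune, collagen and muscle genes, the transthyretin-like genes, which encode small secreted nematode proteins, had the largest share of rises. Of 55 tested members 12 were higher and none lower (21.8%), 41 had a positive log2 fold change, and the median was 0.53. ttr-33, known for protecting neurons from oxidative stress, was at 19.1, 17 and 19.5 CPM in wild type and 119, 68.6 and 54.6 CPM in ok3407 (2.12 ± 0.27, adjusted p = 0.00457). ttr-45 was at 84, 66.2 and 77.7 CPM in wild type and 359, 236 and 205 CPM in ok3407 (1.81 ± 0.24, adjusted p = 0.00493). The most abundant were ttr-18, at 98.7, 58.3 and 76.3 CPM in wild type and 948, 318 and 313 CPM in ok3407, and ttr-51, at 154, 127 and 159 CPM in wild type and 665, 487 and 402 CPM in ok3407. ok3407 replicate 1 was the highest library for each of these 4 genes. The summed level of the list was 4533 to 7179 CPM in ok3407, 2709 to 3628 CPM in wild type and 3062 to 3645 CPM in tm2655. Leaving out wild type replicate 3 reduced the calls to 3, and leaving out wild type replicate 1 reduced them to 7; the other such fits gave 11 or 12.

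Among the membrane transport lists given here, only the anion and proton exchangers had a share of rises well above that of all genes. Of the 51 genes of this list, which also holds bestrophin and clh chloride channels, 9 were higher and none lower. That is 17.6%, against 3.33% of all genes higher, and the median log2 fold change was 0.20. Of 82 potassium and DEG/ENaC channels 3 were higher and 2 lower (3.66% and 2.44%). Of 52 ABC transporters 1 was higher and 3 lower (1.92% and 5.77%), and of 11 aquaporins 0 and 1. Beside 3.33% and 2.91% of all genes, these lists were near the general share or held few calls. best-1, a bestrophin anion channel, was at 2.29, 0.859 and 0.744 CPM in wild type and 18.4, 17.8 and 10.3 CPM in ok3407 (3.65 ± 0.44, adjusted p = 0.00383), and 69% of its reads mapped uniquely. nhx-9, a sodium/proton exchanger, was at 14.6, 22.3 and 18.5 CPM in wild type and 57.2, 76.4 and 39.6 CPM in ok3407 (1.64 ± 0.27, adjusted p = 0.0117). best-14 went from a mean of 20.6 to 71.5 CPM. The count of higher genes in the exchanger list fell to 1 on omitting wild type replicate 3, to 3 on omitting wild type replicate 1 and to 5 on omitting ok3407 replicate 2.

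Among regulators, fos-1 and jun-1, which encode subunits of the AP-1 transcription factor, were higher. fos-1 was at 47.9, 49.7 and 42.7 CPM in wild type and 86.5, 79.8 and 73.8 CPM in ok3407 (0.78 ± 0.13, adjusted p = 0.0119). jun-1 was at 68, 62.4 and 54.9 CPM in wild type and 88.8, 99.1 and 96.9 CPM in ok3407 (0.62 ± 0.12, adjusted p = 0.0181). They and the Mad-like mdl-1 were the 3 called of 43 basic helix-loop-helix and leucine zipper genes (6.98% higher, against 3.33% of all genes). None of the 3 was called when wild type replicate 3 was left out, and only fos-1 when ok3407 replicate 2 was. No gene of 73 homeobox genes was called by edgeR; 3 were higher and 3 lower at an unadjusted p under 0.05, and DESeq2 called none. Of 210 nuclear hormone receptors 4 were higher and 2 lower (1.9% and 0.952%), below the 3.33% and 2.91% of all genes. The lower receptor of smallest p was nhr-114 (mean 155 to 60.1 CPM, 67% of reads unique). Of the epithelial junction genes 3 of 22 were higher (13.6%): dlg-1, the Discs large scaffold (mean 67 to 127 CPM), hmp-1, alpha-catenin (53.7 to 96.6 CPM), and hmr-1, the classical cadherin (100.1 to 143 CPM). Without wild type replicate 3 no junction gene and no nuclear hormone receptor was called; without ok3407 replicate 2, 1 junction gene and 1 lower receptor were.

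Insulin-like peptides had the largest changes of the neuropeptide genes called. ins-20 was at 1.26, 0.355 and 0.233 CPM in wild type and 11.6, 20.2 and 13.7 CPM in ok3407 (4.77 ± 0.62, adjusted p = 0.00513). ins-11 rose from a mean of 0.895 to 5.11 CPM (2.58 ± 0.43, adjusted p = 0.0129). ins-33 moved the other way, from 3.40, 3.88 and 2.93 CPM in wild type to 0.355, 0.706 and 0.611 CPM in ok3407 (-2.59 ± 0.38, adjusted p = 0.00746). Over the whole list of 90 neuropeptide genes 5 were higher and 1 lower (5.56% and 1.11%, beside 3.33% and 2.91% of all genes). The median log2 fold change was -0.04, and without wild type replicate 3 the counts were 1 and 1. The neuropeptide nlp-8, which acts in sleep after stress, was at 9.64, 10.2 and 9.16 CPM in wild type and 20.5, 19.3 and 17.5 CPM in ok3407 (0.98 ± 0.15, adjusted p = 0.00945). let-23, the epidermal growth factor receptor that also acts in that kind of sleep, went from a mean of 22.4 to 43.2 CPM (0.95 ± 0.19, adjusted p = 0.0243). With nas-38 they were among the 4 higher of 31 sleep genes, none of which was lower; 0 were called without wild type replicate 3, 1 without ok3407 replicate 2 and 2 in each fit without the first or second wild type library or the first of ok3407.

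Outside the immune lists, the largest share of calls was in the respiratory chain, the inner mitochondrial membrane complexes that carry electrons to oxygen and make ATP. Of 39 nuclear genes 24 were lower and none higher, 61.5% against the 2.91% of all genes, and 38 of the 39 log2 fold changes were negative. The median was -0.54. atp-2, the beta subunit of ATP synthase and one of the most abundant genes that fell, was at 2982, 2479 and 3006 CPM in wild type and 2076, 1696 and 1994 CPM in ok3407 (-0.55 ± 0.14, adjusted p = 0.0443). sdha-1, the catalytic subunit of complex II, was at 205, 161 and 222 CPM in wild type and 114, 100.5 and 123 CPM in ok3407 (-0.80 ± 0.15, adjusted p = 0.0194). For both genes every ok3407 library was below every wild type library, and tm2655 was near wild type, at 2580 to 2768 CPM for atp-2 and 171 to 217.6 CPM for sdha-1. By complex, 10 of 12 genes of complex I were lower, 2 of 5 of complex II, 2 of 7 of complex III, 3 of 6 of complex IV and its assembly factors, and 7 of 8 of ATP synthase. The genes encoded in mitochondrial DNA were not analysed here.

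The members that were not called included the partner in 4 pairs of related genes, which were picked out after their values were seen and whose difference within each pair was not tested. asb-2, the ATP synthase b subunit of body tissues, had a log2 fold change of -0.76 ± 0.15 and was called, while asb-1, its germline counterpart, was at 227, 249 and 262 CPM in wild type and 245, 218.4 and 205 CPM in ok3407 (-0.14 ± 0.12, adjusted p = 0.499). gas-1 was called at -0.78 ± 0.18 and its paralogue nduf-2.2 had -0.04 ± 0.12 (adjusted p = 0.892). sdha-1 was called and sdha-2 had 0.01 ± 0.14 (adjusted p = 0.973). ucr-2.1 was called at -0.62 ± 0.13, and ucr-2.3 had -0.07 ± 0.13 (adjusted p = 0.779). Between them lay ucr-2.2, also not called, with -0.45 ± 0.21 (adjusted p = 0.221) and 87.7% of its reads unique. Reads of the 8 genes of the 4 pairs mapped uniquely.

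**Figure D3:**
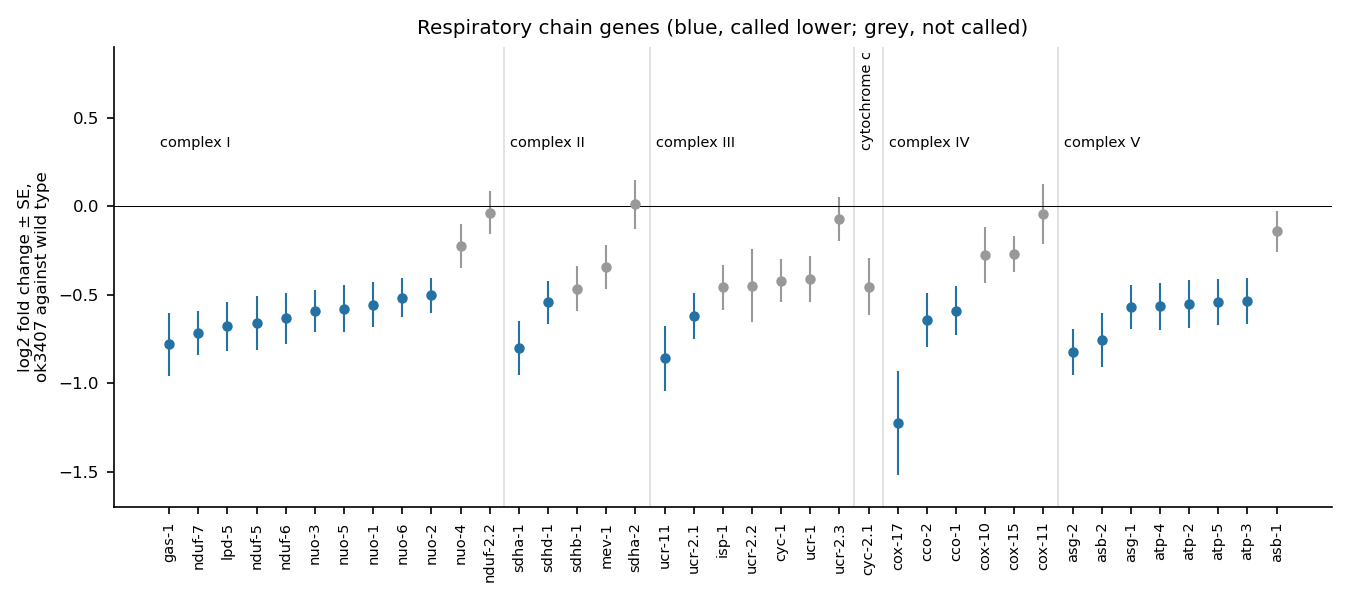
Log2 fold change in ok3407 against wild type, with its SE, of the 39 tested respiratory chain genes, grouped by complex and ordered within it. The 24 called genes (blue) lie between -1.22 and -0.50; the uncalled genes (grey) include sdha-2, nduf-2.2, cox-11, ucr-2.3 and asb-1 near 0.

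The summed level of the respiratory list was 7619 to 9140 CPM in ok3407, 10823 to 12897 CPM in wild type and 11132 to 12130 CPM in tm2655. The number of calls depended on the libraries: omitting ok3407 replicates 1, 2 and 3 in turn left 4, 1 and 9, and omitting wild type replicates 1, 2 and 3 left 2, 23 and 0. The median stayed between -0.64 and -0.50 in those 6 fits. When libraries were scaled by their totals alone, the median was -0.33 and 5 genes were called. The count was 9 from the 6 libraries fitted alone and 8 on log2 RPKM. In the same libraries the summed level of 55 muscle genes was 28330 to 31409 CPM in ok3407 and 38678 to 49575 CPM in wild type. That of 20 intestine markers was 6454 to 6796 CPM against 9482 to 13707 CPM. In whole animals, fewer cells of a type and less RNA per cell cannot be told apart, and the part of muscle and intestine in the fall of the respiratory genes was not tested.

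The glycolysis, mitochondrial ribosomal, vacuolar ATPase and proteasome lists held lower calls and no higher ones. Of 19 glycolysis genes 6 were lower and none higher (31.6%), with a median log2 fold change of -0.45 and a summed level of 3305 to 3872 CPM in ok3407 and 4919 to 5143 CPM in wild type. pgk-1, phosphoglycerate kinase, was at 196, 181 and 209 CPM in wild type and 134, 123 and 133 CPM in ok3407 (-0.59 ± 0.10, adjusted p = 0.0147). ldh-1, lactate dehydrogenase, was at 109, 135 and 109 CPM in wild type and 61.9, 46.6 and 73.3 CPM in ok3407 (-0.96 ± 0.17, adjusted p = 0.0160). Of 63 mitochondrial ribosomal proteins 8 were lower (12.7%, against 2.91% of all genes), none higher, and the median was -0.32. In 40 of the 63 every ok3407 library was below all wild type libraries, against 14.5% of all tested genes. Of 21 vacuolar ATPase genes 4 were lower (19.05%) and of 32 proteasome genes 4 (12.5%), with medians of -0.41 and -0.30. Without wild type replicate 3 no gene of any of these 4 lists was called, and with total library size 2 glycolysis, 1 mitochondrial ribosomal, 1 vacuolar ATPase and 0 proteasome genes were. Leaving out ok3407 replicate 1 or 2 also left none of the last 3 lists, with 3 and 1 glycolysis genes, and leaving out wild type replicate 1 left 3 glycolysis, 1 mitochondrial ribosomal, 0 vacuolar ATPase and 3 proteasome genes. Vacuolar ATPase calls rose to 10 without wild type replicate 2. Of 81 cytosolic ribosomal proteins only the small rpl-41.1 and rpl-41.2 were lower (2.47%). None of the 81 had a positive log2 fold change, and their median was -0.31. List medians by library, relative to the wild type mean, overlapped between genotypes: -0.36 to -0.17 in ok3407 and -0.25 to 0.15 in wild type. In 13 of the 81 every ok3407 library was below all wild type libraries, beside 14.5% of all tested genes. The signs also depend on scaling, since total library size moved the median of all genes by 0.21.

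**Figure D4:**
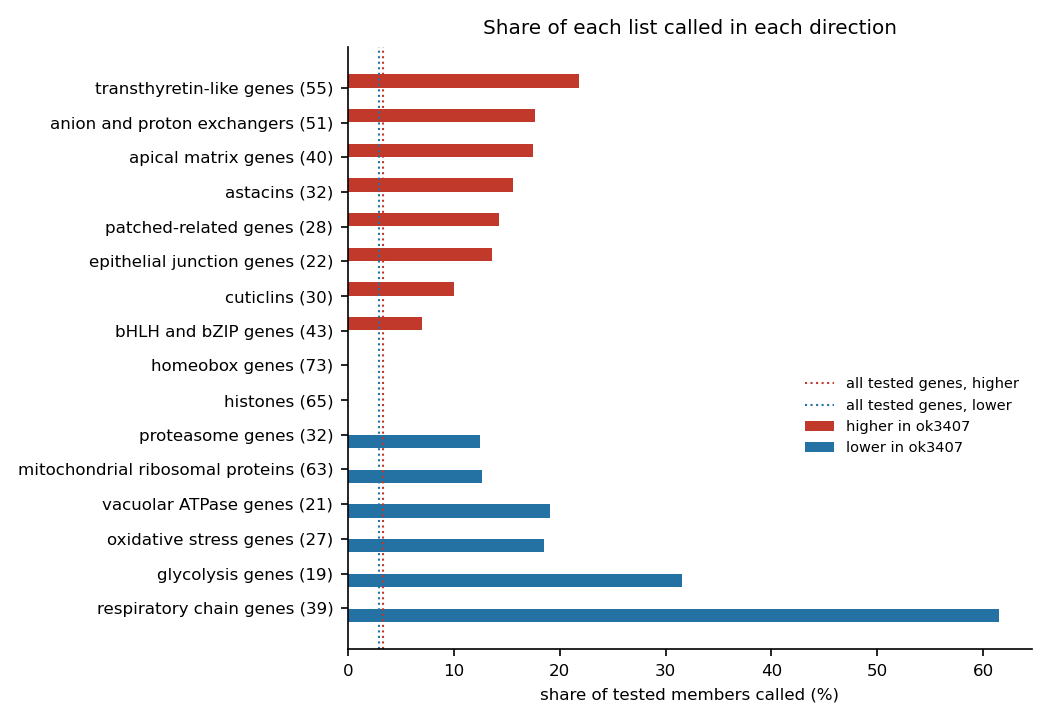
Share of the tested members of 16 lists (number tested in brackets) called higher (red) or lower (blue) in ok3407; dotted lines mark the share over all tested genes, 3.33% higher and 2.91% lower. Respiratory chain and glycolysis genes have the longest blue bars and transthyretin-like genes the longest red bar; homeobox genes and histones have none.

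Of 27 oxidative stress genes 5 were lower and none higher (18.5%). msra-1, methionine sulfoxide reductase, fell most, from 893, 1259 and 873 CPM in wild type to 242, 321 and 270 CPM in ok3407 (-1.86 ± 0.31, adjusted p = 0.0128; 0.0510 without wild type replicate 3). It was at 354, 864 and 707 CPM in tm2655, in each library above ok3407. gpx-2, a glutathione peroxidase, went from a mean of 102 to 63 CPM and prdx-3, a mitochondrial peroxiredoxin, from 172 to 123 CPM. The list's median was -0.17 and turned to 0.04 with total library size, where 1 gene was higher and 2 lower. Leaving out wild type replicate 3 gave 0 calls, and 2 were made without the first wild type library and without either of the first and second libraries of ok3407. Of 42 glutathione S-transferases 3 were lower and none higher, led by gst-36 (mean 61 to 35.2 CPM), and 0 were called without wild type replicate 3 or either of ok3407 replicates 1 and 2. In the cytochrome P450 family, 2 of 66 genes were higher and 4 lower (3.03% and 6.06%, beside 3.33% and 2.91% of all genes). Of the lower ones 3 were of the cyp-13A group: cyp-13A4 (mean 31.2 to 5.53 CPM), cyp-13A12 (21.9 to 3.99 CPM) and cyp-13A2 (22.5 to 6.34 CPM). cyp-13A10 was higher, at a mean of 1.83 against 0.367 CPM. UDP-glucuronosyltransferases also had calls both ways, with 2 of 60 higher and 4 lower (3.33% and 6.67%). In both families the share of rises was near that of all genes. Over the fits that left out a library the lower calls were 0 to 2 for the P450 genes and 1 to 4 for the transferases, each lowest without wild type replicate 3.

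The falls with the smallest p included metabolic enzymes and transporters. pcp-4, a prolyl carboxypeptidase-like enzyme, was at 93.4, 90.7 and 105 CPM in wild type and 21.5, 20.3 and 30.5 CPM in ok3407 (-2.0 ± 0.18, adjusted p = 0.00104). abt-4, an ABC transporter, was at 320, 318 and 284.2 CPM in wild type and 70.9, 69.1 and 106 CPM in ok3407 (-1.91 ± 0.19, adjusted p = 0.00158). ech-6, an enoyl-CoA hydratase of mitochondria, was at 899.7, 811 and 906 CPM in wild type and 373, 301 and 424 CPM in ok3407 (-1.25 ± 0.15, adjusted p = 0.00383). These genes, the aquaglyceroporin aqp-7 (mean 278 to 128 CPM) and dct-16, named as a gene under DAF-16 control (971 to 285 CPM), were called whichever library was left out. tm2655 stood near wild type for ech-6, at 862, 940 and 1059 CPM, and between the other genotypes but nearer wild type for abt-4, at 238, 288 and 215 CPM.

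Some of the falls were in the most abundant genes of the larva. acdh-1, an acyl-CoA dehydrogenase of the propionate shunt, was at 2003, 2836 and 2492 CPM in wild type and 962, 1337 and 1526 CPM in ok3407 (-0.94 ± 0.21, adjusted p = 0.0327). ahcy-1, which hydrolyses S-adenosylhomocysteine, was at 3570, 3950 and 5065 CPM in wild type and 2439, 1607 and 1545 CPM in ok3407 (-1.17 ± 0.28, adjusted p = 0.0393). tm2655 replicate 1 had 2028 CPM of ahcy-1, inside the ok3407 range, and the other tm2655 libraries 3900 and 3692. sams-1, an S-adenosylmethionine synthase of the same cycle picked out after its values were seen, was at 495, 438 and 608 CPM in wild type and 148, 110 and 182 CPM in ok3407 (-1.81 ± 0.26, adjusted p = 0.00704). act-5, the actin of intestinal microvilli, was at 1167, 1570 and 2265 CPM in wild type and 581, 515 and 478 CPM in ok3407 (-1.67 ± 0.25, adjusted p = 0.00802). asp-3, a lysosomal aspartyl protease, went from a mean of 1986 to 1185 CPM. act-5 and asp-3 were 2 of the 3 lower among the 20 intestine markers, whose sums are given with the respiratory chain. The calls of acdh-1, ahcy-1 and asp-3 held in only 2, 1 and 1 of the 6 fits that left out a library, whereas act-5 and sams-1 were called in all 6.

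**Figure D5:**
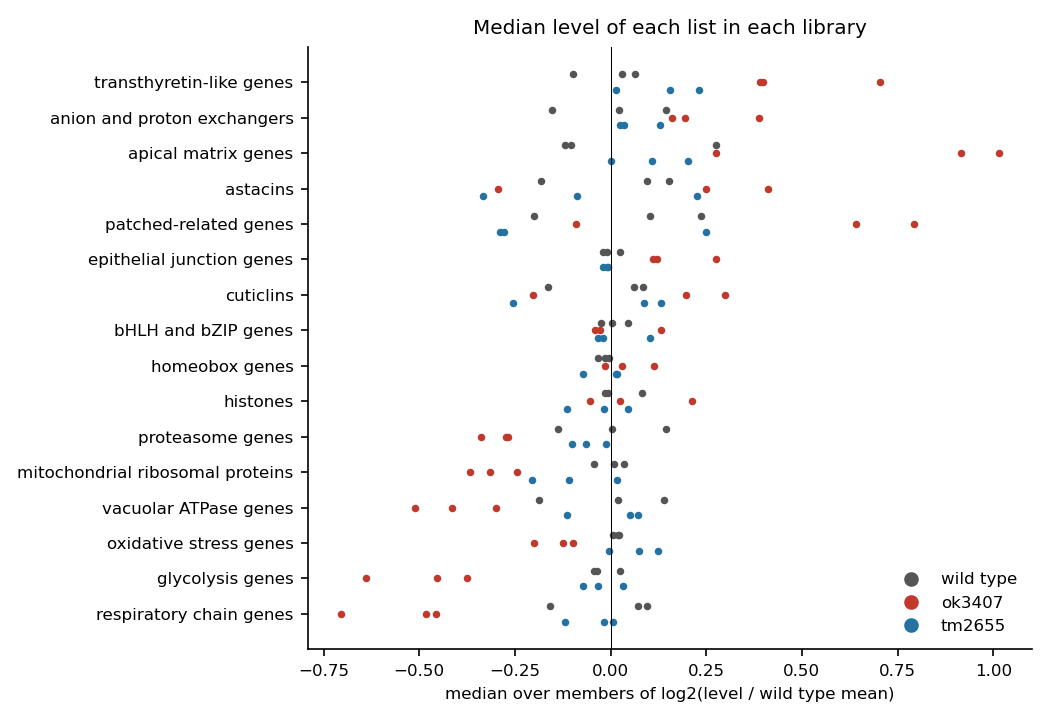
Median over the members of 16 lists of the log2 level relative to the wild type mean, with 1 point per library (grey, wild type; red, ok3407; blue, tm2655). In the respiratory chain and glycolysis lists the 3 ok3407 points lie below all other points, and in the transthyretin-like list above them; in apical matrix, astacin, patched-related and cuticlin lists 1 ok3407 point lies among or below the wild type points.

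Some called genes were neighbours. Of the 534 higher genes 116 (21.7%) and of the 467 lower genes 69 (14.8%) had an adjacent tested gene called in the same direction; over all tested genes, 6.39% were next to a higher gene and 5.69% next to a lower one. In all, 13 stretches held 3 or more such genes in a row. The longest outside the immune lists was on chromosome X from 6082960 to 6088363, where C45B2.3, C45B2.2, C45B2.1 and C45B2.8 were all higher. C45B2.2 was at 91.1, 25.9 and 50.4 CPM in wild type and 1007, 796 and 636 CPM in ok3407 (3.87 ± 0.59, adjusted p = 0.0127). C45B2.1, which RefSeq names spig-20, was at 165, 119 and 222 CPM in wild type and 622, 428 and 466 CPM in ok3407, and C45B2.8 rose least, with 1.24 ± 0.21. In the 6 fits that left out a library, C45B2.3 was called in 6, C45B2.2 and C45B2.8 in 5 and C45B2.1 in 0. The whole stretch was therefore called in none of those fits. On chromosome V from 17101132 to 17108400, ZK218.5, ZK218.7 and ZK218.11 were lower. ZK218.5 had the most reads, at 6.72, 37 and 47.3 CPM in wild type and 0.426, 0.0294 and 0 CPM in ok3407 (-7.83 ± 1.61, adjusted p = 0.0308). Its tm2655 libraries were at 0.979, 25.4 and 11.7 CPM, so wild type replicate 1 and tm2655 replicate 1 were the low libraries of their groups. The call of ZK218.5 was kept only when wild type replicate 1 was the library left out. ZK218.7 was called in 3 of the 6 such fits and ZK218.11 in 0. Also on chromosome V, from 5160620 to 5164759, C03A7.15, abu-6 and abu-7 were lower. C03A7.15, with 100% of its reads in introns, was called in 1 of the 6 fits, and abu-6 and abu-7 in 0. The abu and pqn list, which includes proteins rich in glutamine and asparagine, was split, with 3 of 70 higher and 5 lower. These were 4.29% and 7.14%, beside 3.33% and 2.91% of all genes. No member was lower without wild type replicate 1 or 3 or ok3407 replicate 1 or 2. pqn-92 was higher (mean 30.1 to 90.1 CPM) and abu-11 lower (245 to 115 CPM), and 76% of the reads of abu-6 mapped uniquely, so reads shared among its relatives leave its level uncertain.

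The kind of read mattered for a minority of calls. On exon reads alone, 482 of the 534 higher and 423 of the 467 lower genes were also called, and 2 of the lower genes had the opposite sign. For qns-1, the NAD synthetase, total gene reads fell from 2006, 1535 and 2429 CPM in wild type to 551, 487 and 702 CPM in ok3407 (-1.78 ± 0.21, adjusted p = 0.00353). Of these reads 92.9% lay in introns and 26.4% mapped uniquely, and on exon reads the log2 fold change was -0.07 (adjusted p = 0.736). glr-4, a glutamate receptor subunit, was higher with 97.6% of its reads in introns. It was also higher on exon reads, with a log2 fold change of 1.60 (adjusted p = 0.00530). The vesicular glutamate transporter eat-4, the 1 neuron marker called of 24, was lower with 76.6% in introns. On exon reads eat-4 had a log2 fold change of -0.43 (adjusted p = 0.448). Whether the counting used strand is not given in the sources used here, so reads from overlapping genes cannot be told apart for these loci. ZK970.7 and C06A8.3, named srlf-34 and srlf-1 by RefSeq, were among the most abundant genes that rose, with 46% and 48% of reads unique; ZK970.7 was at 50.9, 5.98 and 20.3 CPM in wild type and 861, 848 and 398 CPM in ok3407.

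Gene groups of the germ line and of cell division held no call in either direction by edgeR. None was called among 41 germ granule and oocyte genes, 39 cell cycle and DNA replication genes or 30 major sperm proteins, where an unadjusted p under 0.05 and DESeq2 also gave 0. Their median log2 fold changes were -0.14, 0.02 and -0.27, with 7 of 41, 22 of 39 and 3 of 30 positive. The medians were 0.16 for the meiosis genes and 0.41 for the histones. Among 29 meiosis genes 5 were higher at an unadjusted p under 0.05 and 1 by DESeq2. Among 65 histones the unadjusted test gave 10 higher and 1 lower, and DESeq2 gave 6 and 1. Among 25 innexins it gave 4 higher and 1 lower, and DESeq2 1 and 1.

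The immune lists together had 30 higher and 7 lower of 265 genes (11.3% and 2.64%). fip-6, of the fungus-induced peptides, was at 4.19, 2.01 and 1.21 CPM in wild type and 138, 202 and 56.3 CPM in ok3407 (5.81 ± 0.63, adjusted p = 0.00393). cnc-2, a caenacin peptide of the epidermis, was at 4.11, 0.978 and 1.63 CPM in wild type and 123, 102 and 49.3 CPM in ok3407 (5.46 ± 0.64, adjusted p = 0.00491). Both were called in every fit that left out a library, whereas nlp-29 (mean 30.2 to 337 CPM) was called in 1 of 6. Not all antimicrobial genes rose: the lysozyme lys-4 was at 365, 280 and 497 CPM in wild type and 138, 120 and 136 CPM in ok3407 (-1.54 ± 0.37, adjusted p = 0.0472), a call kept in none of those fits. Of 149 cuticle collagens 3 were higher and 21 lower. col-179 was at 363, 431 and 584 CPM in wild type and 68.8, 55.9 and 99 CPM in ok3407 (-2.62 ± 0.28, adjusted p = 0.00246), and col-113 rose from 350.1, 182 and 212 CPM to 1068, 1217 and 1049 CPM (2.17 ± 0.25, adjusted p = 0.00341). Of 55 muscle genes 16 were lower and none higher, among them unc-54, the major body wall myosin, at 7635, 6382 and 7807 CPM in wild type and 4301, 4097 and 4641 CPM in ok3407 (-0.74 ± 0.14, adjusted p = 0.0204), called in 2 of 6 such fits. Without wild type replicate 3 there were 4 lower collagens and no muscle call, and without ok3407 replicate 2 there were 7 and none.

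The authors' deposited table for this pair of genotypes lists 647 genes as higher and 278 as lower in ok3407. It shares 385 higher genes with the calls above, 59.5% of that table and 72.1% of the higher calls. It shares 152 lower genes, 54.7% of that table and 32.5% of the lower calls. Among the named genes on it, the smallest folds were 2.01 (twk-1) and -2.05 (T08H10.1), whereas the calls above had no fold threshold. Of those calls, 419 of the 534 higher and 168 of the 467 lower genes changed by more than 2-fold. The shares therefore compare lists made at unlike thresholds, and how far the 2 tests differ at equal thresholds was not tested.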

How the data were processed

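Total RNA of whole larvae was made into stranded mRNA libraries and sequenced as paired-end reads, per the labels' protocols. The authors deposited raw counts of total gene reads, with unique, exon, junction and intron counts per library, and RPKM, per the file headers; another column gives exon length in bases. The authors' deposited comparison table gives a p-value, an FDR and a score (a signed fold) per gene, per the file headers, which name it an EDGE test with tagwise dispersions. The sources used here do not name aligner, counter, strand setting or genome build; of 46314 genes matched to RefSeq WBcel235, 99.6% lay within 5000 bases of its start and end. Genes were filtered with filterByExpr and fitted with edgeR 4.0.16 (R 4.3.3; TMM, robust quasi-likelihood, 9 libraries, 3 per group, no block); SE are log2. Samples are biological replicates per the design text, so p-values measure the spread among 3 preparations. The procedure was tested on simulated data with changes placed in genes above a floor of reads. It called 36% of 2-fold and 84% of 4-fold changes, with 4% of calls false, so a gene not called may still have changed. Alternatives used DESeq2 1.42.0 and limma 3.58.1 on log2(RPKM + 1) and log2(RPKM + 0.1), whose fold changes understate those of low genes.

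Named genes are nas-38; outside the immune, collagen and muscle lists, the 15 largest rises and falls of genes at 1 CPM or more, the 15 smallest p per direction and the 8 most abundant per direction; up to 3 per list and direction; and members of stretches of 3 or more called neighbours. Members and lists were chosen with earlier results of these data known. No sequences are printed.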

Additional observations from a re-analysis of the deposited data

How the results depend on the processing

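Against 534 higher and 467 lower genes, DESeq2 called 986 and 1047, log2 RPKM with pseudocounts of 1 and 0.1 called 731 and 706 higher and 220 and 225 lower, and total library size 757 higher and 167 lower; the cause was not tested. Leaving out 1 library gave 95 to 462 higher and 28 to 460 lower genes, and a log2 fold change of nas-38 between 1.64 and 2.34. For qns-1 the direction turned on log2 RPKM, with 0.12 at both pseudocounts (adjusted p = 0.557 with 0.1). Replicate numbers did not pair the samples: same-numbered libraries had deviations correlated at -0.20, 0.05 and -0.24, and a fit with the replicate block called 488 higher and 395 lower genes. Depth of 13759541 to 40523994 gene reads limits genes under 1 CPM, of which 1.31% were called higher and 0.438% lower. Counting intervals and floors cover counting error only.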

Other observations

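A few gene groups described little or not at all above each held a small number of calls. Over all tested genes 3.33% were higher and 2.91% lower. The groups in this section were near those shares or held too few calls to be set apart from them. Chitinase cht-1, which degrades chitin, was the 1 call of 25 chitin genes, at a mean of 57.5 CPM in ok3407 and 3.28 CPM in wild type (log2 fold change 4.14 ± 0.88, adjusted p = 0.0341, edgeR). ftn-1, the iron store ferritin, was the 1 call of 12 metal handling genes, at 20.9 against 3.61 CPM. Small heat shock protein hsp-43 was higher (294 against 82.2 CPM) and the mitochondrial chaperone hsp-60 lower (326 against 527 CPM) among 55 heat shock genes, of which 2 were higher and 1 lower. Of 52 ABC transporters, ced-7, needed for the engulfment of dying cells, was higher (280 against 115 CPM), and pmp-5 was lower (229 against 516 CPM) with haf-6 and abt-4. mua-6, an intermediate filament of the epidermis, was the 1 call of 21 hemidesmosome and filament genes, at 348 against 164 CPM. In the 6 fits that left out a library, haf-6 was called in none, ftn-1 in 1, cht-1, hsp-43 and mua-6 in 2, hsp-60 and pmp-5 in 4, ced-7 in 5 and abt-4 in 6; without wild type replicate 3 only abt-4 of these was called.

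Of the 46 hedgehog-related genes 3 were higher and 1 lower (6.52% and 2.17%). grl-4 went from a mean of 277 CPM in wild type to 551 CPM in ok3407, and grd-6 from 384 to 112 CPM. Of 19 tetraspanins 2 were higher, among them tsp-15, the partner of the dual oxidase, at 19.9 against 9.35 CPM. tba-4, an alpha-tubulin, was the 1 call of 15 tubulins, at 141 against 354 CPM, and the galectin lec-10 the 1 call of 12 galectins, at 97.7 against 265 CPM. Of 59 fatty acid oxidation genes, acs-11 and acs-3 were higher and acdh-1 and ech-6 lower (3.39% each way, near the shares of all genes). Of these, grd-6, tsp-15 and acs-3 were called in 1 of the 6 fits, grl-4 and acdh-1 in 2, tba-4 and lec-10 in 5, and acs-11 and ech-6 in all 6; the last pair alone were called without wild type replicate 3.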
